A study of Mus musculus with 6 samples.

Results

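The genes described here are those of homologous recombination, the Fanconi pathway and the kinases of the DNA damage checkpoint, in mouse T-cell acute lymphoblastic leukaemia (T-ALL). The list held 37 named genes, and each was represented by its brightest probe set with 1 gene symbol. Of these, 35 were measured among 18193 genes in all, and Rbbp8 and Xrcc2 were not analysed here. The leukaemias carried Notch1ΔE, a constitutively active NOTCH1, together with a GFP reporter of c-Myc (genotype Notch1[delta]E mycGFP) on the C57BL/6 strain, at an age of 12 weeks. Both groups shared this genotype, the spleen as source, CD25 on the cell surface and 4 weeks of growth after transplant. They differed in the GFP signal: 3 arrays came from MycGFP negative and 3 from MycGFP positive cells. The design speaks of 3 independent leukaemias, each of them sorted by GFP, and no label gives the promoter that drives Notch1ΔE or says whether animals were pooled.

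Homologous recombination mends DNA double-strand breaks by copying the intact sister chromatid, and so works mainly once DNA has been replicated. The MRE11-RAD50-NBS1 complex senses the break and starts to trim its ends, and BRCA1, PALB2 and BRCA2 then prepare the single-stranded DNA to invade its template. The Fanconi proteins open up crosslinked DNA and hand the resulting break to this machinery. The kinases ATM and ATR sense breaks and stalled replication forks, and they act through CHEK2 and CHEK1 to hold the cell cycle. Many of these genes are transcribed mostly in dividing cells.

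Median intensity over all probe sets was 30.5 to 32.7 on the 6 arrays, on the deposited linear scale, and is used here as a mark of dim signal, since no detection calls were available. The T-cell markers Cd3d, Cd3e and Cd3g were bright on every array, and the summed intensity of 7 measured of 8 T-lineage and sort genes lay between 47050 and 55943 in negative cells and between 39544 and 50723 in positive cells. All of the 7 but Myc had a negative difference, and none of these 6 passed. The largest was that of Cd247, at 2028, 2045 and 1112 on negative and 678, 849 and 719 on positive arrays (2.23-fold lower, limma, adjusted p = 0.0625). Markers of other cells were far dimmer in sum. The 4 measured of 5 B cell markers summed to 189.5 to 731 and 96.7 to 443, the 4 of 5 myeloid markers to 107.9 to 974 and 103.6 to 229, and the 3 of 5 erythroid markers to 45.9 to 69.3 and 40.8 to 53.2. No such marker was listed at 0. Pax5, Itgam and Hba-a1 lay below the array median on every array. The myeloid gene Lyz2 read 52.9, 850.3 and 30.1 on the negative and 42.3, 168 and 36.5 on the positive arrays, highest on array 2 in both groups. The B cell gene Cd79b read 309, 122 and 645 on negative and 182, 44.0 and 213 on positive arrays, 2.42-fold lower and lower in each pair of the same number. It did not pass (limma, adjusted p = 0.445) but did with the array number as a block (adjusted p = 0.0452). The other B cell markers measured, Cd79a, Ms4a1 and Pax5, had log2 differences of -0.05, -0.08 and -0.15 and passed in neither fit. Each of them was higher in positive cells in pair 1 and lower in pairs 2 and 3. The part that other cells had in the results was not tested. Myc, the gene behind the sort, was 1.37 higher in positive cells on the log2 scale (SE 0.24, limma, adjusted p = 0.0329). RNA quality was read from control transcripts, as signal at the 3' end over signal at the 5' end. For Gapdh this ratio was 1.89, 1.58 and 1.78 on the negative and 1.58, 1.48 and 1.48 on the positive arrays, with the groups all but meeting. For actin it was 1.54, 1.87 and 1.83 against 1.85, 1.80 and 1.72, with full overlap. The part of RNA quality in the results was not tested either.

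Recombination, Fanconi and checkpoint genes were mostly higher in MycGFP positive cells. Of the 35 measured, 18 were called higher and 0 lower at an adjusted p under 0.05 (limma on log2 intensity, two-sided, Benjamini-Hochberg over all genes). Among all genes 4.62% were called higher and 1.51% lower, which is 840 against 275 genes. That split was 502 against 381 with each array centred on its median and 510 against 383 after quantile normalization, so more of the called genes were lower under these scalings. Before adjustment, 27 of the 35 genes had a p under 0.05 with a positive difference, and 1, Rad52, with a negative one, beside 14.7% and 7.35% of all genes. The median log2 difference, positive minus negative, was 1.72 over the 35 genes, a 3.30-fold ratio, beside 0.01 over all genes. Of the 18 called genes, 17 were at least 2-fold and 8 at least 4-fold higher. In 27 of the 35 genes all 3 positive arrays lay above all 3 negative arrays, and in 2 all 3 lay below, while over all genes the shares were 17.0% and 11.2%. The RNA came from sorted populations, so fewer cells that express a gene and less RNA per cell cannot be told apart.

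**Figure D1:**
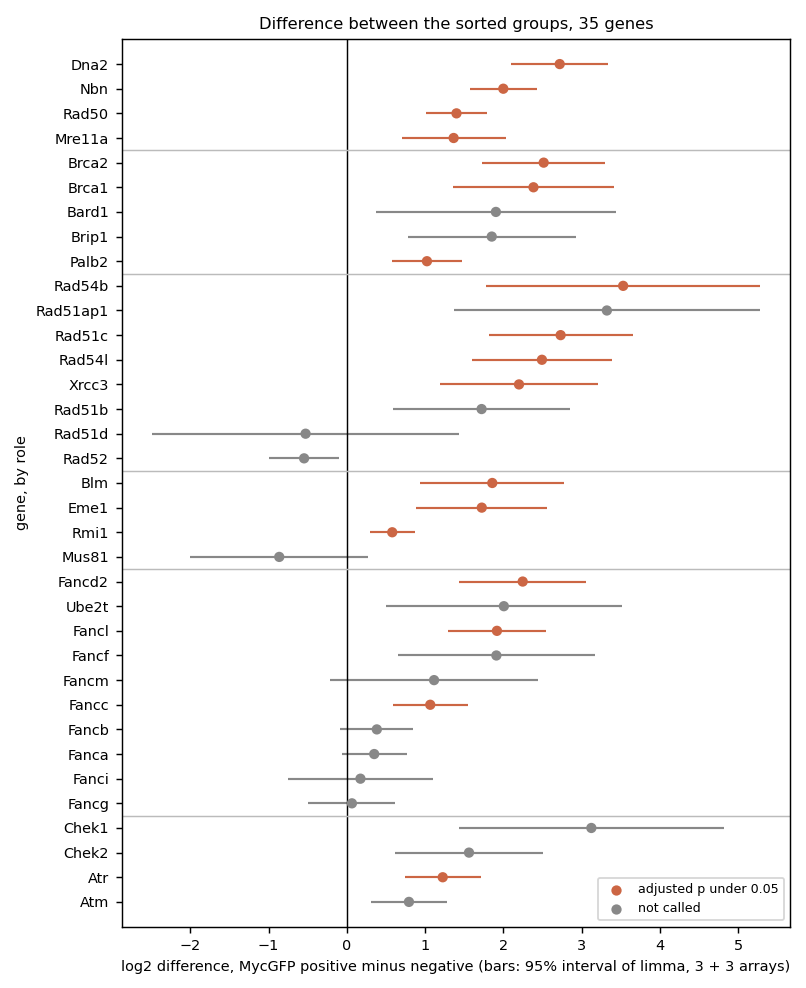
Log2 difference between MycGFP positive and negative cells (horizontal axis) for each of the 35 genes, grouped by role. Points are the estimates and bars the 95% interval of limma from 3 + 3 arrays, orange where the adjusted p was under 0.05. Estimates run from -0.86 for Mus81 to 3.53 for Rad54b, and 32 of 35 lie above 0.

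The number of calls fell when any 1 array other than negative array 1 was left out. Without positive array 2, limma called 0 of the 35 genes, although before adjustment 25 had a p under 0.05 with a positive difference and 1 with a negative one, beside 12.1% and 5.36% of all genes in that fit. The smallest adjusted p of the 35 was then 0.0591, and none of the 18193 genes was called. Without negative array 2 only Nbn and Dna2 remained called, where 131 of all 18193 genes were called higher and 37 lower. Without positive array 1, Nbn, Dna2, Brca2 and Rad50 did, beside 174 genes higher and 55 lower in all. Without positive array 3, Nbn, Dna2, Atr and Xrcc3 did. Without negative array 3, 9 genes were called: the end processing genes Nbn, Dna2 and Rad50, with Brca1, Brca2, Rad51c, Rad54l, Fancl and Fancd2. That fit called 586 genes higher and 238 lower in all. Without negative array 1 the count was again 18, with Brip1, Chek1, Chek2 and Rad51ap1 in place of Palb2, Xrcc3, Rmi1 and Atr. Over all genes 862 were then called higher and 176 lower. Centring each array on its median over genes moved the difference of every gene by the same -0.15 (log2). The median of the 35 genes therefore had to stay 1.71 above that of all genes, which is no check of this gap. Centring left 11 calls of the 35 and ended those of Mre11a, Palb2, Rad54b, Blm, Rmi1, Eme1 and Fancc (adjusted p = 0.0536 to 0.108). Quantile normalization left 8 calls and ended those of the same 7 genes and of Brca1, Xrcc3 and Atr (adjusted p = 0.0509 to 0.181). In the fit with the array number as a block, 20 of the 35 genes were called higher and 0 lower, where 5.75% and 1.95% of all genes were.

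**Figure D2:**
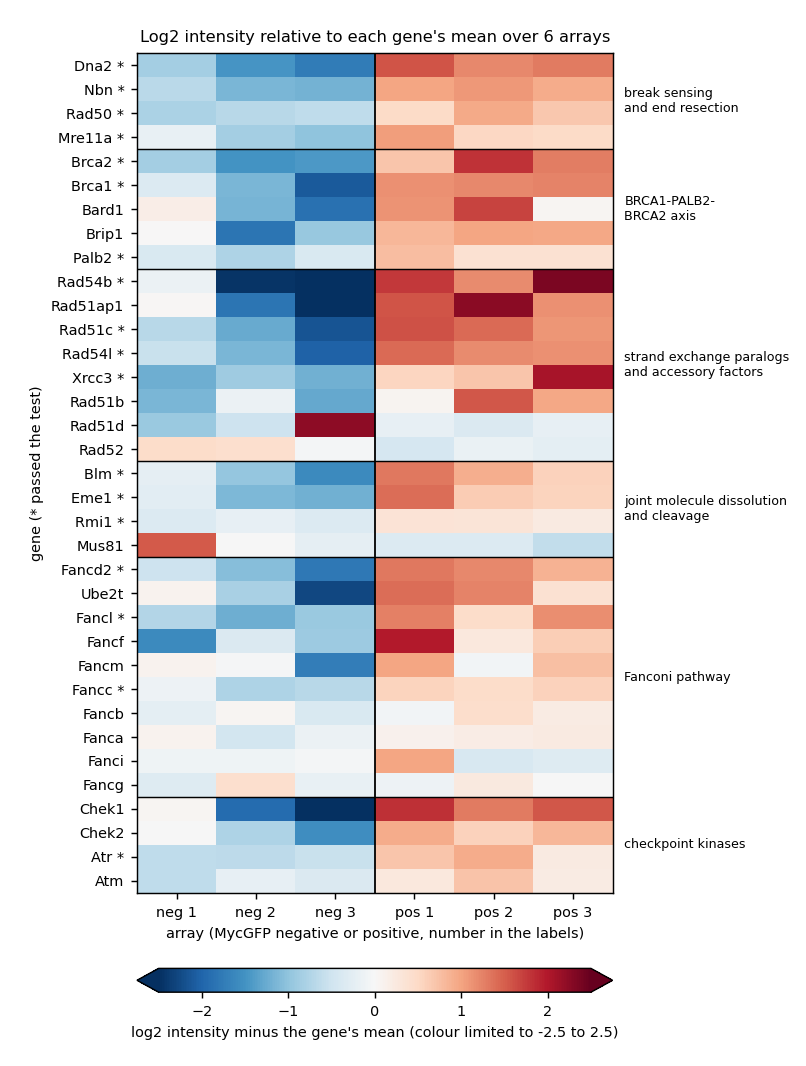
Log2 intensity of each of the 35 genes on the 6 arrays, relative to the gene's own mean over the arrays, with genes in rows by role and arrays in columns. An asterisk marks the 18 genes that passed the test. The positive arrays are mostly red and the negative ones mostly blue, with Rad51d on negative array 3 and Mus81 on negative array 1 standing out in red.

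Promoters of these genes were examined because many of them are known targets of E2F, the transcription factor family that turns on replication genes. Whether E2F had a part in the differences was not tested. RefSeq windows on assembly GRCm38.p6, from 250 bases before to 50 after an annotated start, were found for 30 of the 37 genes. They were searched on both strands for 4 spellings of the E2F motif. TTCCCGC occurred in windows of 13 of the 30 genes, beside 7.95% of the 14452 genes on the array with a window. The spelling TTGGCGC was present in 5 (4.29%), while TTCGCGC was in 4 (2.74%) and TTGCCGC in 1 (2.77%). At least 1 spelling was found in 18 of the 30 genes, beside 15.99% of array genes. Among genes called higher, 5 of 14 had such a match, and among those not called 13 of 16 had one. Not called did not mean unchanged here. These 13 include Rad51ap1, Chek1 and Ube2t, at ratios of 10.0, 8.71 and 4.02, but also Fancg at 1.05 and Rad52 at 0.68. The CCAAT box, bound by NF-Y, was in 18 of the 30 genes (42.0% of array genes) and the CHR element TTTGAA of late cell cycle genes in 3 (15.7%). The E-box CACGTG, a site type of MYC and MAX, was found in 2 genes, Rmi1 and Eme1 (10.2%). A match is only a run of letters, and a window without one says nothing of the factor.

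The windows shown are those of the 4 called genes with the smallest adjusted p among those with a window, and that of Fancg, whose difference was the smallest of all 35. Capitals mark the motifs searched, and the strand printed is that of the gene. Dna2 (chr10:62946779-62947078, plus strand) and Fancl (chr11:26386834-26387133, plus strand) held none of them.
Dna2: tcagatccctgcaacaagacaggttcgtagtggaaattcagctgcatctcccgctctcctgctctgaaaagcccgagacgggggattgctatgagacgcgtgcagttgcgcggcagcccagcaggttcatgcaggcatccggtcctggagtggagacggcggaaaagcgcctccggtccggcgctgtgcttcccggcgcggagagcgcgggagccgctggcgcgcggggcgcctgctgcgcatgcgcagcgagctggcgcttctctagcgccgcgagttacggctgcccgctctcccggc
Fancl: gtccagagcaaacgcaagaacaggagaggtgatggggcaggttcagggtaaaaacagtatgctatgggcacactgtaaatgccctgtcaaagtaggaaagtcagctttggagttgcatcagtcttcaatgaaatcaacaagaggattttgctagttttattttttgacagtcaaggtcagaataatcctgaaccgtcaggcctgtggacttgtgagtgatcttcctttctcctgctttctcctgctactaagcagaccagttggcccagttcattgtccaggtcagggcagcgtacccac
Brca2 (chr5:150522371-150522670, plus strand) held 1 match, which begins 168 bases before the start.
Brca2: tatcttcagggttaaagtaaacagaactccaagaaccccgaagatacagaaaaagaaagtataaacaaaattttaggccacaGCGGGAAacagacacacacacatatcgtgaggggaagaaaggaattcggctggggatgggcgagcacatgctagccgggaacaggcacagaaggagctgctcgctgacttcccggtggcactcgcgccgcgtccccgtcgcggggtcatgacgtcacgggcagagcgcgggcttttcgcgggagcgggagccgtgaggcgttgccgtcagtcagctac
Rad51c has 2 windows, from different annotated starts. The downstream one (chr11:87404457-87404756, minus strand) held a match that begins 12 bases after the start, and the upstream one (chr11:87404905-87405204, minus strand) held matches beginning 68 and 5 bases before it.
Rad51c downstream: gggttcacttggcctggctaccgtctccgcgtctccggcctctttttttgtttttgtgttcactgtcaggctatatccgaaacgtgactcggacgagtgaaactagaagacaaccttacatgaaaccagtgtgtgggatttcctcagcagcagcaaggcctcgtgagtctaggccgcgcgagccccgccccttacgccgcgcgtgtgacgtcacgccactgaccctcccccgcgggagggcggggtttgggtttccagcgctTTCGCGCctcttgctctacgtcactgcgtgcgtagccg
Rad51c upstream: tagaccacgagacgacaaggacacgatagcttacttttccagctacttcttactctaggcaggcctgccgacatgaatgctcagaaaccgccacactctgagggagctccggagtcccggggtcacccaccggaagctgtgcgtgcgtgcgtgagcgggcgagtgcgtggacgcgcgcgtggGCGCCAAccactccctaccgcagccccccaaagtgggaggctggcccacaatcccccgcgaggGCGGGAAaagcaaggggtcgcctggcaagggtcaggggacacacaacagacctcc
Fancg (chr4:43010252-43010551, minus strand) held a match that begins 51 bases before the start.
Fancg: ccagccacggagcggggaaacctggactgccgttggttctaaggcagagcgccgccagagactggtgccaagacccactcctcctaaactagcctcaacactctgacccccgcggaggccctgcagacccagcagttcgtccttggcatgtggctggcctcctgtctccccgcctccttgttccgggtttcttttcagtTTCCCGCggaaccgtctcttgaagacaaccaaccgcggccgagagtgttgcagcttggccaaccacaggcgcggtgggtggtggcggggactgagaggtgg

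All 4 measured genes that sense breaks and trim DNA ends were higher in MycGFP positive cells. Nbn, whose product NBS1 recruits ATM to the break, had intensities of 187, 135 and 131 on negative arrays 1 to 3 and 589, 634 and 566 on positive arrays 1 to 3. Its group values were narrow and far apart, 151 ± 31.2 and 596 ± 34.2 (SD, n = 3), for a 4.00-fold difference (limma, adjusted p = 0.0103). Dna2, the nuclease and helicase of long-range resection, was at 145, 94.9 and 78.2 on the negative and 785, 602 and 651 on the positive arrays. That is a log2 difference of 2.72 (SE 0.26, adjusted p = 0.0103), and with Nbn the smallest adjusted p of the 35 genes. The other Dna2 probe sets gave 1.55 and 1.48 without passing (limma on every named probe set, adjusted p = 0.0516 and 0.0775). Rad50, the ATPase that holds the break ends, went from 82.8 ± 4.47 to 220.2 ± 35.9 (SD, n = 3), 2.64-fold, with single values of 78.0, 83.4 and 86.9 and then 188, 259 and 214. The nuclease gene Mre11a was at 207, 130.3 and 118 on negative and 489, 338 and 328 on positive arrays, 2.57-fold higher (adjusted p = 0.044). Its other probe set read 97.9, 190.1 and 121 on negative and 168, 127 and 114 on positive arrays and did not pass (adjusted p = 0.966 in a fit of every named probe set). The second Rad50 probe set was dim throughout, at 5.30 to 7.46. Of the 6 fits that each leave out 1 array, 1 ended the calls of both Nbn and Dna2, 3 that of Rad50 and 5 that of Mre11a.

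Of the 5 genes of the BRCA1, PALB2 and BRCA2 axis, which acts on resected ends, Brca1, Palb2 and Brca2 rose. Brca2, a tumour suppressor that acts at the resected end, was at 87.7, 56.2 and 58.4 on negative and 256, 549 and 381 on positive arrays, a 5.71-fold difference (limma, adjusted p = 0.0172). The positive arrays spread over more than the negative ones but none came near them. Brca1, the ubiquitin ligase that favours resection, was almost level on positive arrays, at 532, 553 and 566. On negative arrays it differed widely, at 191, 109 and 56.4, for a log2 difference of 2.38 (SE 0.42, adjusted p = 0.0331). Palb2, the bridge between BRCA1 and BRCA2, was 2.03-fold higher, from 63.8 ± 9.77 to 129.6 ± 20.6 (SD, n = 3, adjusted p = 0.0343), with single values of 69.2, 52.5 and 69.7 against 153, 118 and 118.

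Bard1 and Brip1, which encode partners of BRCA1, did not pass the test. Bard1, the obligate partner in the ligase, was at 101, 39.9 and 24.6 on negative arrays and 195, 289.8 and 92.1 on positive arrays. Negative array 1 lay above positive array 3, so the groups overlapped (log2 difference 1.90, 95% interval 0.37 to 3.43, adjusted p = 0.142). Brip1, the helicase bound to BRCA1, was at 56.6, 15.9 and 29.1 and 99.6, 112 and 109.7 in the same order, with no overlap and an adjusted p of 0.0667. Negative array 1 was the highest negative array for 4 of these 5 genes, Palb2 being the exception. Palb2 lost its call in all 6 fits that leave out an array, Brca1 in 4 and Brca2 in 3.

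Among the paralogs Rad51b, Rad51c, Rad51d and Xrcc3, whose products assist strand exchange, Rad51c and Xrcc3 rose. These 2 proteins form the CX3 complex, and RAD51C also belongs to the complex with RAD51B, RAD51D and XRCC2. Rad51c had intensities of 78.4, 53.2 and 28.4 on negative and 379.7, 337 and 271 on positive arrays, 6.64-fold higher (limma, adjusted p = 0.0195). Its second probe set also passed (1.72 on the log2 scale). Xrcc3 was near the array median on negative arrays, at 28.9, 36.1 and 29.2, and at 97.3, 108 and 279 on positive ones, so the third positive array was well above the others. The log2 difference was 2.20 (SE 0.41, adjusted p = 0.0376), and the second Xrcc3 probe set gave 1.49 (adjusted p = 0.0184). Rad51b was dim, at 9.45, 18.8 and 8.63 and 21.8, 61.2 and 41.2, under the array median on negative arrays and on positive array 1. It did not pass (3.30-fold, adjusted p = 0.0891). It passed with the array number as a block (adjusted p = 0.0339) and when both its probe sets were averaged (adjusted p = 0.0217).

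Rad51d was the paralog with no common direction. It was at 168, 224 and 1501 on negative arrays and at 276, 248 and 276 on positive arrays, so that negative array 3 stood far above every other array. Without that array the log2 difference was 0.46, against -0.53 with it (95% interval -2.49 to 1.43), and neither passed. The other 3 Rad51d probe sets did not share the high value: on negative array 3 they read 60.1, 89.2 and 22.4. Their log2 differences were 0.68, -1.77 and -0.12 in that order. The probe set at 0.68 was higher on all positive arrays than on any negative array, and that at -1.77 was lower on all. Neither of these passed (limma on every named probe set, adjusted p = 0.153 and 0.134). Rad51d was singled out after its values were seen.

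The genes of both RAD54 motor proteins, which help a DNA strand to invade its template, rose. Rad54l was at 154, 102 and 55.5 on negative and 608, 511 and 499.9 on positive arrays, 5.63-fold higher (limma, adjusted p = 0.0225), and all 3 of its other probe sets passed. Rad54b had the largest log2 difference of the 35 genes, 3.53, but with a wide error (SE 0.72, adjusted p = 0.0455). It was at 164, 32.9 and 27.8 on negative arrays, near the array median on the last 2, and at 610.4, 411 and 919 on positive arrays. Rad51ap1, which promotes strand invasion, was nearly as far apart, at 168, 46.5 and 17.9 against 490.4, 789 and 361. Its brightest probe set did not pass (log2 difference 3.32, SE 0.80, adjusted p = 0.0694), while each of its other 3 did, at log2 differences of 1.90 to 3.31. Rad52, a mediator of single-strand annealing in mammals, went the other way: 1174, 1142 and 821 on negative and 639, 763 and 723 on positive arrays. All 3 positive values were lower, 1.46-fold in the fit, without passing (adjusted p = 0.147, 95% interval of the log2 difference -0.99 to -0.10). The second Rad52 probe set read 299, 301 and 2282 on negative arrays, so negative array 3, on which Rad51d was high, stood apart here too. On positive arrays it read 86.9, 181 and 219, below every negative array, without passing (log2 difference -1.97, limma on every named probe set, adjusted p = 0.243). Leaving out 1 array ended the call of Rad51c in 4 of 6 fits, Rad54l in 4, Rad54b in 5 and Xrcc3 in 5.

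**Figure D3:**
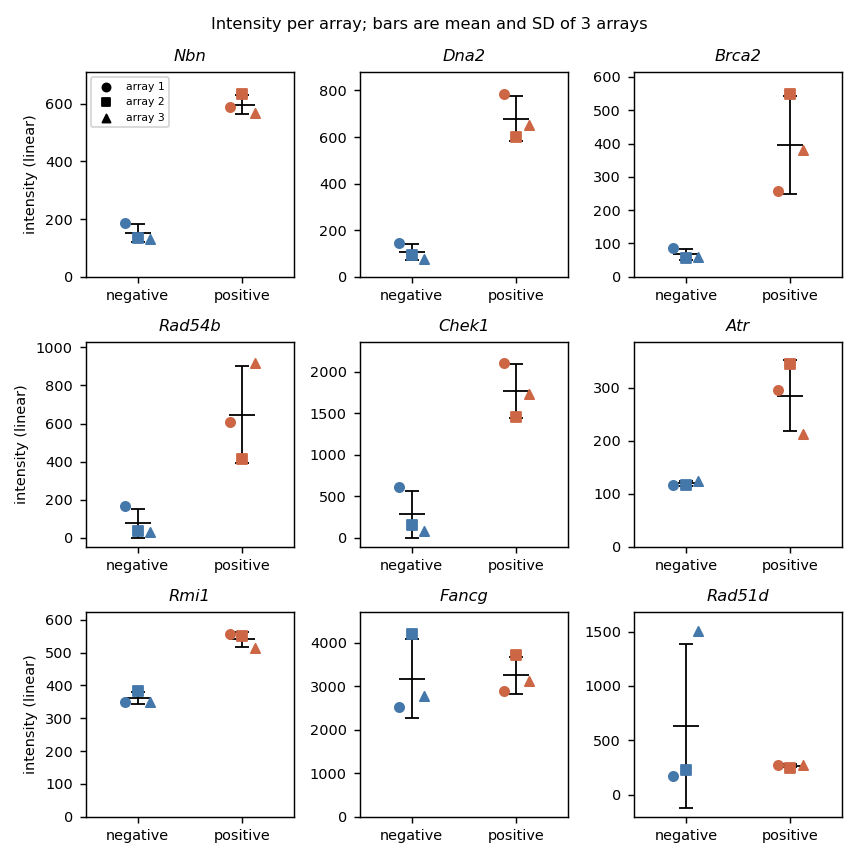
Linear intensity of 9 genes on MycGFP negative (blue) and positive (orange) arrays, with the array number as the marker shape and the mean and SD of 3 arrays in black; each panel has its own scale. Atr is tight within the negative group, all positive values of Nbn, Dna2 and Brca2 lie above the negative ones, Rad54b and Chek1 are highest among negative arrays on array 1, Fancg overlaps between groups, and Rad51d has 1 high value, on negative array 3.

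Recombination leaves joined DNA molecules, which the BLM helicase dissolves with its partner RMI1 and which the nuclease MUS81-EME1 cuts. Blm was at 161, 96.8 and 62.8 on negative and 472, 353 and 279.9 on positive arrays, 3.62-fold higher (limma, adjusted p = 0.0453). Eme1, the regulatory subunit of the nuclease, was at 72.3, 40.0 and 37.5 and 229, 135 and 127, 3.30-fold higher (adjusted p = 0.0438). Rmi1 differed little but steadily, from 362 ± 19.3 to 540.1 ± 23.2 (SD, n = 3), 1.49-fold, with single values of 350.3, 384 and 351 and 557, 549 and 514. Its adjusted p was 0.046, and 0.0732 with the array number as a block, where the call ended. None of the other 4 Rmi1 probe sets passed, at log2 differences of -0.10 to 0.42. Mus81, the catalytic subunit that pairs with EME1, did not follow its partner. It read 509, 173 and 149 on negative and 138, 138 and 115 on positive arrays, so negative array 1 stood apart and the other 2 lay just above the positive arrays (log2 difference -0.86, SE 0.47, adjusted p = 0.358). Blm and Eme1 lost their calls in 5 of the 6 fits without an array and Rmi1 in all of them.

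The Fanconi genes were divided. All 10 had a positive difference, but 3 passed the test, and the 10 ranged from 0.06 to 2.25 on the log2 scale. FANCL is the ubiquitin ligase of the core complex, UBE2T its conjugating enzyme, and FANCD2 with FANCI the pair that they mark. Fancl was at 181, 128 and 158 on negative and 716, 412 and 669 on positive arrays, 3.78-fold higher (limma, adjusted p = 0.0188). Fancd2 was 4.74-fold higher, from 46.5, 31.8 and 19.2 to 165, 153 and 121 (adjusted p = 0.0229). It lay under the array median on negative arrays 2 and 3, and 2 of its other 3 probe sets also passed. Ube2t, at 137, 73.2 and 26.4 against 336, 303 and 168, had a 4.02-fold difference that did not pass (adjusted p = 0.123), but did with the array number as a block (adjusted p = 0.0376).

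Fanci, the partner of FANCD2, did not pass on its brightest probe set. It was at 594, 594 and 618 on negative arrays and 1272, 483 and 508 on positive arrays, so positive array 1 was high and positive arrays 2 and 3 lay below every negative array. Without positive array 1 the log2 difference was -0.28, against 0.17 with it (95% interval -0.76 to 1.10). The second Fanci probe set was dim, at 13.8 to 21.2. Fanci and Fancg were singled out after their values were seen.

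In the Fanconi core complex, which carries FANCL to the lesion, only Fancc among the other subunits measured passed on its brightest probe set. It was at 203, 131 and 137 on negative and 329, 304 and 333 on positive arrays, 2.09-fold higher (limma, adjusted p = 0.0368), while its other 2 probe sets gave 0.07 and 0.32 without passing. Fancg, another core subunit, overlapped between the groups: 2525, 4202 and 2782 on negative and 2897, 3727 and 3125 on positive arrays. Its log2 difference was 0.06, with a 95% interval of -0.49 to 0.62. Fancf, the adaptor of the complex, was at 17.1, 40.0 and 27.5 and 203, 62.2 and 79.3, with no overlap between groups and an adjusted p of 0.09. Fancm, the translocase that anchors the complex on DNA, was at 116, 106 and 33.1 and 215, 104 and 184, where positive array 2 lay below negative arrays 1 and 2 (adjusted p = 0.306). One of its other 2 probe sets passed (1.36 on the log2 scale, adjusted p = 0.0302). Fanca and Fancb had small differences of 0.35 and 0.38. For Fancb the other probe set passed at 1.80 (adjusted p = 0.0266), from 64.5, 48.2 and 43.0 on negative to 272, 146 and 143 on positive arrays. The call of Fancl ended in 4 of the 6 fits without an array, that of Fancd2 in 4 and that of Fancc in 5.

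Of the 4 checkpoint kinases, Atr passed and all 4 had positive arrays wholly above negative ones. Atr, the kinase of stalled forks, was at 118, 117 and 125 on negative and 296, 346 and 213 on positive arrays, 2.34-fold higher (limma, adjusted p = 0.028). The negative arrays were almost level. The other 2 Atr probe sets gave 0.61 and 0.10 without passing, and the call of Atr ended in 5 of the 6 fits without an array. Chek1, the kinase that ATR activates, had the largest difference of the 4, 3.12 on the log2 scale, an 8.71-fold ratio. Its intensities were 609, 157 and 84.3 on negative and 2108, 1462 and 1733 on positive arrays, and the spread of the negative arrays gave an SE of 0.70 (adjusted p = 0.0564). It passed with the array number as a block (adjusted p = 0.0438) and, in the fit of all named probe sets, on 3 of its other 4 probe sets, at 2.79 to 3.73.

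In the ATM arm neither gene passed. Atm, the kinase of double-strand breaks, was at 346, 469 and 421 on negative and 648, 881 and 622 on positive arrays, 1.73-fold higher without passing (adjusted p = 0.0739). Chek2, which ATM activates, was at 145, 84.8 and 49.3 and 278, 218 and 257, 2.95-fold higher, also without passing (adjusted p = 0.0733). Its negative arrays were highest on array 1 and lowest on array 3, whereas for Atm negative array 1 was the lowest.

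The MycGFP negative arrays were not alike in these genes. Negative array 1 was the highest of the 3 for 23 of the 35 genes (65.7%) and negative array 3 the lowest for 20 (57.1%). Over all genes these shares were 36.6% and 27.6%. The median log2 difference between negative arrays 1 and 3 was 0.59 over the 35 genes and -0.02 over all genes. Genes of the cell cycle followed the same order. Of 20 S phase genes, 18 were highest among negative arrays on array 1, with a median log2 difference of 1.38 between negative arrays 1 and 3, and of 19 genes of G2 and mitosis all 19 were, with 2.34. Between the sorted groups, 15 of the 20 S phase genes and 5 of the 19 mitotic genes were called higher, at median log2 differences of 2.19 and 2.31. With the array number as a block these counts were 16 and 12. Negative array 1 was thus most often the highest both for the 35 genes and for the cell cycle genes. Among positive arrays, array 1 was highest for 18 of the 35 genes (51.4%), beside 44.4% of all genes. It was highest there for 14 of the 20 S phase genes and 17 of the 19 genes of G2 and mitosis. Whether the share of cycling cells had a part in the difference between the groups was not tested.

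**Figure D4:**
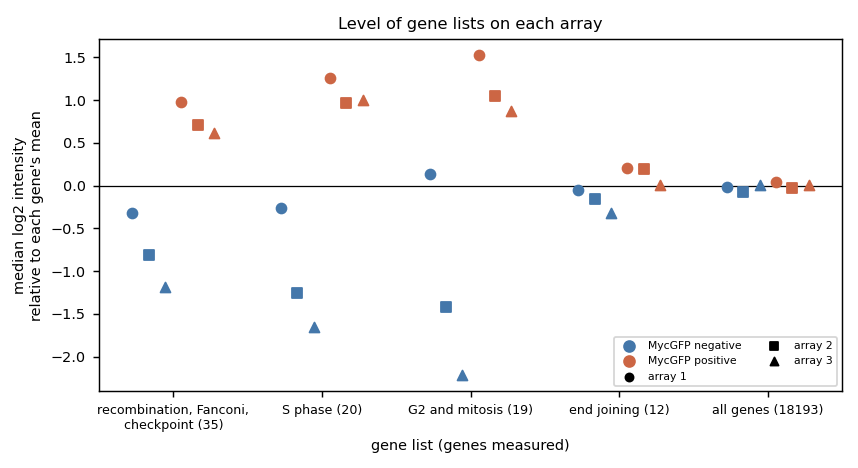
Median log2 intensity of 5 gene lists on each array, relative to each gene's own mean over 6 arrays (vertical axis), for MycGFP negative (blue) and positive (orange) arrays with the array number as marker shape. The 35 genes run from -0.32 on negative array 1 to -1.18 on negative array 3 and lie at 0.62 to 0.98 on positive arrays; the S phase and mitosis lists spread further, and all genes stay between -0.07 and 0.04.

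Genes with several probe sets gave a check on the choice of the brightest. The 35 genes had 82 probe sets, and 26 genes had more than 1. In a fit of all 34945 named probe sets, where 4.76% were called higher and 2.16% lower, 17 of the 47 probe sets not chosen were called higher and 0 lower. Of 12 called genes with another probe set, 5 had a second one called: Brca1, Rad51c, Xrcc3, Rad54l and Fancd2. Of 14 genes not called, 4 had another probe set that was: Rad51ap1, Fancb, Fancm and Chek1. With these, 22 of the 35 genes had some probe set called higher. Several of the probe sets that did not move were dim on all arrays, such as one of Brca1 at 10.2 to 12.2 and one of Ube2t at 8.86 to 11.2. Others were brighter, such as one of Mre11a at 97.9 to 190.1 (log2 difference 0.03) and one of Atr at 105 to 269 (0.10).

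**Figure D5:**
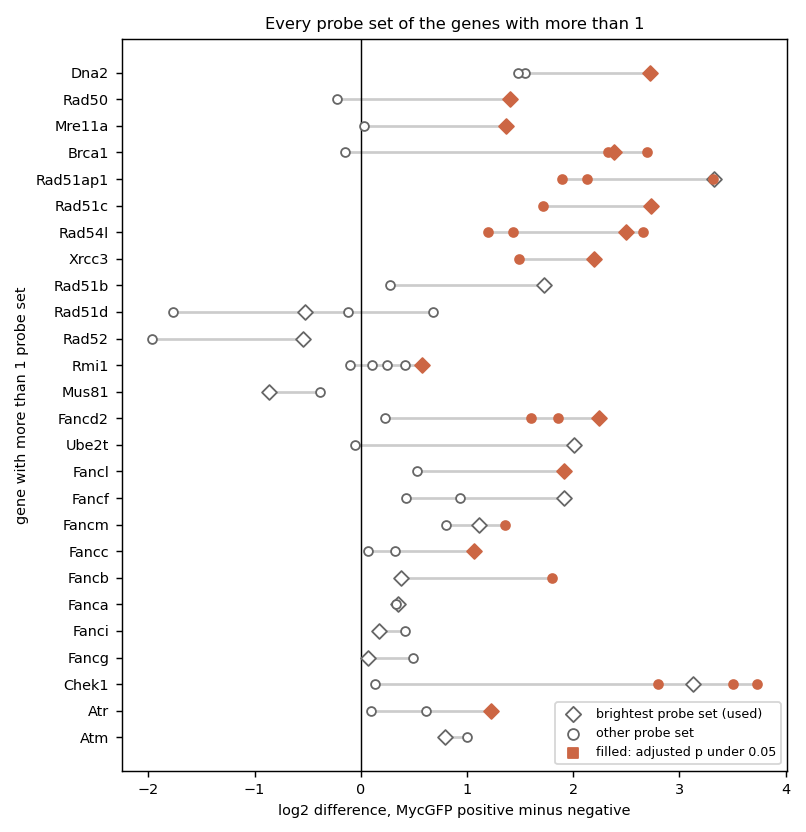
Log2 difference between MycGFP positive and negative arrays (horizontal axis) of every probe set of the 26 genes with more than 1; diamonds are the brightest probe set of a gene, circles the others, and filled symbols had an adjusted p under 0.05 over all named probe sets. All 4 probe sets of Rad54l are filled, those of Rad51d fall on both sides of 0, and the brightest probe set of Fancb lies near 0.38 while its other one lies at 1.80.

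Other genes of break repair and checkpoint signalling rose in part. Of 70 measured in 4 further lists, 17 (24.3%) were called higher and 0 lower by limma, with a median log2 difference of 0.64. Over all genes 4.62% were called higher and 1.51% lower, with a median of 0.01. With the array number as a block, 23 of the 70 were called higher and 0 lower, beside 5.75% and 1.95% of all genes. These were 8 genes of recombination, 4 of crosslink repair, 10 of checkpoint and break signalling and 1 of end joining. Before adjustment, 3 of the 70 (Eme2, Lig4 and Dntt) had a p under 0.05 with a negative difference, beside 7.35% of all genes. Among 23 other recombination genes, 6 were called. Mnd1, which acts with PSMC3IP in strand exchange, rose 7.86-fold, the resection nuclease gene Exo1 6.50-fold, the single-strand binding gene Rpa2 2.85-fold and the helicase gene Rtel1 2.47-fold. Among 13 other crosslink repair genes, Cenps, a cofactor of FANCM, rose 6.24-fold (limma, adjusted p = 0.0194) and the ubiquitin ligase gene Rfwd3 2.48-fold. Among 22 other checkpoint and break signalling genes, 6 were called. The block added Rad1, Clspn, Cdc25a and H2ax. The 6 included Hus1, of the clamp that marks damaged DNA, at 3.35-fold (adjusted p = 0.0103), with Timeless at 5.49-fold, Topbp1, an activator of ATR, at 2.55-fold and Abraxas1 at 2.07-fold. Of 12 genes of end joining, the route that needs no template, 3 were called, with a median of 0.33 over the list. These were Prkdc at 1.93-fold, Xrcc5 at 2.45-fold and Parp1 at 1.94-fold, and the last 2 did not pass with the array number as a block (adjusted p = 0.0526 and 0.0636).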

How the data were processed

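RNA of sorted spleen cells was measured on 6 Affymetrix mouse arrays, 3 MycGFP negative and 3 MycGFP positive, grouped by their titles. Per the labels' protocols, 5 ng of total RNA per sample was amplified (Nugen Ovation) and the cDNA labelled with biotin, which can add noise to dim genes. The authors deposited array intensity per probe set, not logged, and RMA is the summary method per the submitters' processing notes. Gene names came from GEO's platform annotation, with symbols updated by Entrez identifier through RefSeq's GRCm38.p6 table (34741 of 34945 probe sets with 1 symbol matched). The 932 probe sets with several symbols, 9160 with none and 64 controls were left out.

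The log2 of the deposited intensity was taken, with no pseudocount and no filter on low values, and each gene was represented by its probe set with the highest mean over 6 arrays. The 2 groups were set against each other by limma 3.58.1 (R 4.3.3; lmFit and eBayes without covariates), which had 4 residual and 2.17 prior degrees of freedom and was tested on simulated data first. Folds are antilogs of log2 differences, means and SDs are of linear intensity, and intervals are at 95%. Because RMA equalizes the arrays, these values cannot show a shift in the RNA content of a cell. The small number of arrays limits the precision.

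Arrays of the same number in both groups are taken as pairs on the evidence of the values alone: deviations from the group mean correlated across genes with r = 0.38, 0.21 and 0.39 for the same number, and -0.32 to -0.03 for different numbers. Whether a number marks 1 leukaemia is not stated in the labels, and p-values measure the spread between these samples, which may be technical in part. The main fit had no block.

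The genes, lists and motifs were chosen with earlier results of these data known. By the rule for named genes all 35 were accounted for, with values per array for called genes and the 2 largest differences not called in each role, and up to 4 called genes per further list with the smallest adjusted p. The alternatives tried were a block on the array number, leaving out each array, other probe set choices, scalings, an added 16 before the log, a filter on dim genes, a trended robust variance and array weights.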

Additional observations from a re-analysis of the deposited data

How the results depend on the processing

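The count of genes called higher among the 35 was 18, and over the fits that each leave out 1 array it ranged from 0 to 18, with 0 lower in each by limma. Over all genes these fits gave 0 to 862 higher and 0 to 238 lower, beside 840 and 275. Centring arrays on their median gave 11 of the 35 and 502 genes higher, with 381 lower, so the share higher among called genes moved. Quantile normalization gave 8 and 510 higher, with 383 lower. The other settings gave 13 to 22. The median log2 difference of the 35 genes, 1.72, moved to 1.09 when all probe sets of a gene were averaged and to 1.39 with 16 added before the log. With the array number as a block, 20 genes of the 35 were called, 17 of them in both fits. The block ended the call of Rmi1 and added Rad51b, Ube2t and Chek1, and it changed no other call among the 35.

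Of 523 values of single genes under 15 alternatives, 386 kept direction and side of the threshold, 107 lost a call, 22 gained one and 8 changed sign. All sign changes were in genes that were not called. Fancg, at 0.064, was -0.086 with centred arrays and -0.081 to 0.29 when arrays were left out. Fanci, at 0.17, was -0.0069 after quantile normalization, -0.065 with array weights and -0.28 to 0.42 when arrays were left out. Rad51d, at -0.53, ranged from -1.12 to 0.46 when arrays were left out. The cause of these changes was not tested, beyond the arrays named. The filter on dim genes left no value for 2 of the 35. Signal below the array median, found for 10 of the 35 on some array, limits what their folds can show.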
